A study of Mus musculus with 12 samples.

Results

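Distal chromatin that was open in adult but not in fetal blood stem cells, and that carried no promoter or enhancer annotation in either, was examined for its contacts with captured promoters. The authors' table pairs each promoter fragment with the distal bins of 2 kb that it contacted, and annotates these bins with 0 or 1 for open chromatin (ATAC) and for 10 classes of active, bivalent, primed or poised promoter or enhancer. Members are the contacts within a chromosome whose bin was open in adult cells, was not open in fetal cells and had 0 for all 10 classes. The rule found 3377 such contacts among 88475 within chromosomes (3.82%) and 89545 in all, at 2807 distinct bins. The first batch gave 1909 of its 49290 within-chromosome contacts (3.87%) and the second batch 1468 of 39185 (3.75%).

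The populations compared were the haematopoietic stem cells (HSCs) of fetal liver at embryonic day 14.5, called fetal, and HSCs of bone marrow from animals aged 6 to 8 weeks, called adult. Both came from B6129SF1 mice and were sorted as lineage-negative, Sca1-positive, cKit-positive and CD135-negative cells. There were 4 Capture-C libraries per population, 2 from each batch, but every deposited value pools the libraries of a population within a batch. No value therefore has a replicate error, the variation between libraries is unknown, and intervals below cover counting error alone. Contact maps of selected promoters in these cells are the stated purpose of the series, which also holds 4 libraries of the HPC7 line, wild type or without TCF3, which were not analysed here.

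Capture-C ligates cross-linked, digested chromatin and pulls down the ligated pieces of selected promoters with probes, so that a distal fragment read often with a promoter was often near it in the nucleus. ATAC-seq marks DNA that a transposase can reach, which is typical of bound regulatory elements. Open sites without the histone marks of promoters or enhancers include binding sites of the insulator factor CTCF and elements that are bound but not active, and accessible chromatin is known to be remodelled when HSCs pass from the cycling fetal to the mostly quiescent adult state.

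Promoter sequences are shown for 4 genes on which named results turn. Pdcd10 and Serpini1 share a captured fragment whose contact with the same member bin was called in adult cells alone in each batch. All members of Fam184a were adult-only contacts, and Pf4 had one of the largest adult excesses of counts. Each sequence holds the 250 bases before the gene's start in RefSeq's GRCm38.p6, 5′ to 3′ on the gene's strand. Capitals mark matches to a motif of ETS factors (GGAAGT), which were searched on both strands together with AGATAA, read by the GATA family, and with TGTGGT, the RUNX core. No match to one motif overlapped another in these windows.
Pdcd10, chr3:75556853-75557102, minus strand: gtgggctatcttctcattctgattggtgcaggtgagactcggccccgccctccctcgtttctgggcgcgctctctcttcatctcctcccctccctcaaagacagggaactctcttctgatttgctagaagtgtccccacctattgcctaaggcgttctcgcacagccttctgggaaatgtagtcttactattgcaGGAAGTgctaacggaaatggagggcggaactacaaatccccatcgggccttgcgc
Serpini1, chr3:75557243-75557492, plus strand: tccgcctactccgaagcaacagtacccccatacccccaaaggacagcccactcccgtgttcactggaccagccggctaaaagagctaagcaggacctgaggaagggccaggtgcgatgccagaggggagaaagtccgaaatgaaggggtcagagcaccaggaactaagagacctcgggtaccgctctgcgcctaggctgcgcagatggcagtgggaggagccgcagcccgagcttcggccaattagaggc
Fam184a, chr10:53750910-53751159, minus strand: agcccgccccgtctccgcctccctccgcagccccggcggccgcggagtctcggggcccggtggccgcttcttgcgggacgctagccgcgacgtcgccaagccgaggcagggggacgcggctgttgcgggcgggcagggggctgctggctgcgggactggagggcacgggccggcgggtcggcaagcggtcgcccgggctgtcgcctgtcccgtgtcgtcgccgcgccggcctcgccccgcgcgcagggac
Pf4, chr5:90772185-90772434, plus strand: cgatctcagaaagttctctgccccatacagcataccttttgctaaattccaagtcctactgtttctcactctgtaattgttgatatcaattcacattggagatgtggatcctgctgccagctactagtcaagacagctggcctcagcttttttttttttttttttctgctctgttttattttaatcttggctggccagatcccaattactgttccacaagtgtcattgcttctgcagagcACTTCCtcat

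An ETS match stood 55 bases before the start of Pdcd10 on the gene's strand and 10 bases before that of Pf4 on the opposite strand. Serpini1 and Fam184a held 0 matches to any of the 3 motifs. Among all 32851 RefSeq promoters of the same length, 19.7% held the ETS motif, 9.99% the GATA motif and 14.0% the RUNX motif. GC content was 41.2% at Pf4, 54.8% at Pdcd10, 61.2% at Serpini1 and 80.4% at Fam184a. The contact coordinates below are those of the deposited table, which the submitters' processing notes place on mm9, and are not to be set against the GRCm38.p6 positions of these sequences.

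Of 3781 listed bins open in adult cells alone, 2860 (75.6%) carried no mark. The share was 71.6% of the 4983 bins open in fetal cells alone and 37.3% of the 28219 open in both. The member bins were spread over the genome: they made up 3.13% of the listed bins on chromosome 19, the lowest share, and 5.38% on chromosome 18, the highest. The batches captured nearly separate promoters, and 192 member bins occurred in both, which is 11.5% of the first batch's member bins and 14.4% of the second's. Little overlap was seen in the other classes as well. Bins contacted in both batches were 192 of 2807 at members and 294 of 3516 at unmarked bins open only in fetal cells. They were 1150 of 10381 at unmarked bins open in both, 1726 of 28613 at those open in neither and 3705 of 22449 at marked bins. Only 28 member bins held a captured promoter themselves.

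The bins next to a member were often open in adult cells too. Among 1797 member bins with an adjacent listed bin, 84.2% (95% exact interval 82.4 to 85.9) had a neighbour open in adult cells and 43.9% one open in fetal cells. Bins open in both had a neighbour open in adult cells in 89.1% of cases, and bins open in neither in 38.7%. A neighbour open in adult cells alone was found for 49.2% of members. It was found for 2.5% of unmarked bins open in fetal cells alone, 6.34% of those open in both and 5.55% of those open in neither. Such runs of like bins were not particular to members. Of unmarked bins open in fetal cells alone, 85.7% had a neighbour open in fetal cells and 60.3% one open in fetal cells alone. Marks next door were found at similar shares. A neighbouring bin with any promoter or enhancer class was seen for 25.2% (23.2 to 27.2) of members and for 22.5% to 24.4% of the other unmarked classes. An active enhancer of adult cells lay next to 9.18% of members and one of fetal cells next to 7.74%.

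Members reached many promoters, usually with 1 bin each. They touched 888 of 1952 captured promoters (45.5%) in the first batch and 736 of 1829 (40.2%) in the second. A single member was seen for 433 and 377 promoters of these batches, and 3 or more for 250 and 182. After bins of a promoter up to 5 kb apart were merged, 1632 and 1206 separate sites remained, of which 1400 and 980 were 1 bin wide. Promoters with a member had a median of 34.0 and 30.0 contacts of any kind, against 9.0 and 7.0 for those without, so that having a member moves with how many contacts a promoter has.

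Most members were called in one population alone, and more of these in fetal than in adult cells, although their chromatin was open in adult cells only. The authors gave each contact a score per population, which is 0 where the contact was not called and otherwise starts at 1.3 in the first batch and 2.0 in the second. Of first-batch members 719 were called in adult cells only, 802 in fetal cells only and 388 in both. For the second these numbers were 483, 551 and 434. Over all within-chromosome contacts of the first batch, 35.7% were adult-only, 39.0% fetal-only and 25.3% shared, and in the second 29.3%, 34.0% and 36.7%. Members were thus shared less often than all contacts, at 20.3% (18.5 to 22.2) and 29.6% (27.2 to 32.0), and lay close to the other unmarked bins open in a single population, at 22.7% and 30.2%. Unmarked bins open in neither were shared still less, at 16.8% (16.3 to 17.3) and 27.4% (26.6 to 28.1). Those open in both had 29.6% and 41.3%, and marked bins 33.4% and 45.1%. The score threshold was near for many of the calls in a single population. Of members called in a single population, 60.9% to 72.6% scored within 1 unit of the threshold in the various groups, while the share was 24.2% and 15.9% of shared members. Over all contacts these shares were not computed.

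Against the mirror class of unmarked bins open only in fetal cells, members leaned more to adult calls in the second batch, and in the first the difference was within counting error. Of member contacts called in one population, 47.3% (44.7 to 49.8) of the first batch and 46.7% (43.6 to 49.8) of the second were adult-only. At fetal-only open bins the share was 45.4% (43.1 to 47.6) and 40.2% (37.5 to 42.9). The difference was 1.89 percentage points (-1.46 to 5.24, Newcombe interval) in the first batch and 6.54 points (2.5 to 10.6) in the second. With distance held in 5 classes, the Mantel-Haenszel odds ratio was 1.11 (0.971 to 1.28) and 1.46 (1.22 to 1.76). Within promoters that had both kinds of contact it was 1.06 (0.882 to 1.27) and 1.3 (1.02 to 1.64). These intervals treat contacts as independent, and neighbouring bins are often called together, so they are too narrow. Fetal calls were the larger number at member bins as well as at the mirror class in each batch. With a stricter score, a p 10 times smaller, the adult-only share of members was 49.9% (45.8 to 54.0) and 51.3% (47.0 to 55.7), so the majority of fetal calls in the second batch turned into a small majority of adult calls within counting error.

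**Figure D1:**
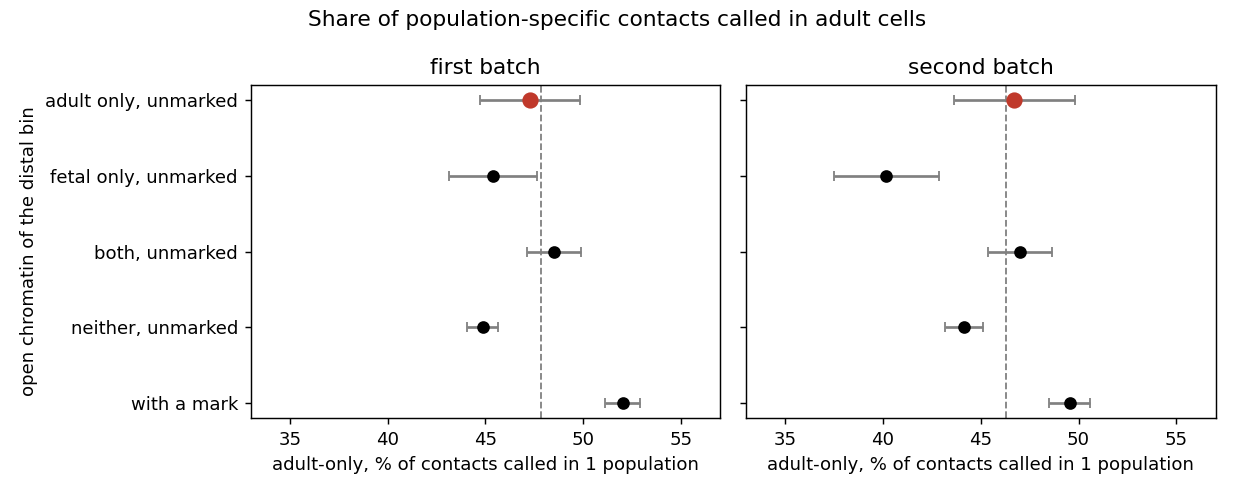
Share of contacts called in a single population that were called in adult cells (x axis, %), for 5 classes of distal bin (y axis) in each batch, with exact 95% intervals; the dashed line is the share over all within-chromosome contacts. The members, in red, lie at 47.3% and 46.7%, near the dashed lines at 47.9% and 46.3%, while bins open only in fetal cells lie at 45.4% and 40.2%.

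The other classes placed members in the middle. Unmarked bins open in both populations had an adult-only share of 48.5% in the first batch and 47.0% in the second, which differed from members by -1.23 points (-4.07 to 1.62) and -0.310 points (-3.74 to 3.14), members minus the others. Unmarked bins open in neither had 44.9% and 44.1%, lower than members by 2.42 points (-0.197 to 5.05) and 2.58 points (-0.592 to 5.77). The odds ratio against these closed bins with distance held was 1.10 (0.992 to 1.23) and 1.17 (1.02 to 1.35), and with the stricter score the second batch's difference was 6.63 points (2.13 to 11.1). Bins with a mark had the highest shares, 52.0% and 49.5%, above members by 4.74 points in the first batch (interval of members minus marked -7.40 to -2.08) and by less than counting error in the second (-6.03 to 0.399).

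The counts were close to even between the populations. Member contacts of the first batch held a median of 8 counts in fetal and 8 in adult cells, with quartiles of 6 and 12 and of 5 and 12. The medians of the second batch were 25 and 22. Counts of all within-chromosome contacts under 1000 were higher in fetal cells by 0.13 (log2) in the first batch and 0.19 in the second, 642192 against 587828 and 1301076 against 1139196. The median log2 ratio of fetal to adult counts, with 1 added to each, was 0.16 (0.07 to 0.22) and 0.21 (0.16 to 0.26) at members. All contacts had medians of 0.14 and 0.23, so members stood at that background. Fetal-only open bins were at 0.19 (0.15 to 0.25) and 0.34 (0.30 to 0.37), and in the second batch their interval lay above that of members. An adult count at least 1.5 times the fetal count was found for 528 members (27.7%, 25.7 to 29.7) of the first and 195 (13.3%, 11.6 to 15.1) of the second batch, where 25.2% and 12.0% of all contacts passed this limit. The reverse held for 698 (36.6%) and 459 (31.3%) members, against 34.1% and 30.6% of all contacts. The adult excess was less frequent at fetal-only open bins, 23.5% (21.8 to 25.2) in one batch and 9.08% (7.81 to 10.5) in the other. Both intervals lay below those of members. Unmarked bins open in neither had 26.9% and 12.5%, within the intervals of members, so the adult excess was not particular to bins open in adult cells. Unmarked bins open in both had 24.0% and 12.7%, and marked bins 23.8% and 11.5%. With counts scaled to the batch totals, 31.0% (28.9 to 33.1) and 20.5% (18.5 to 22.7) of members had an adult excess. All contacts then had 28.6% and 18.0%, and fetal-only open bins 27.0% (25.3 to 28.8) and 14.0% (12.5 to 15.7).

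**Figure D2:**
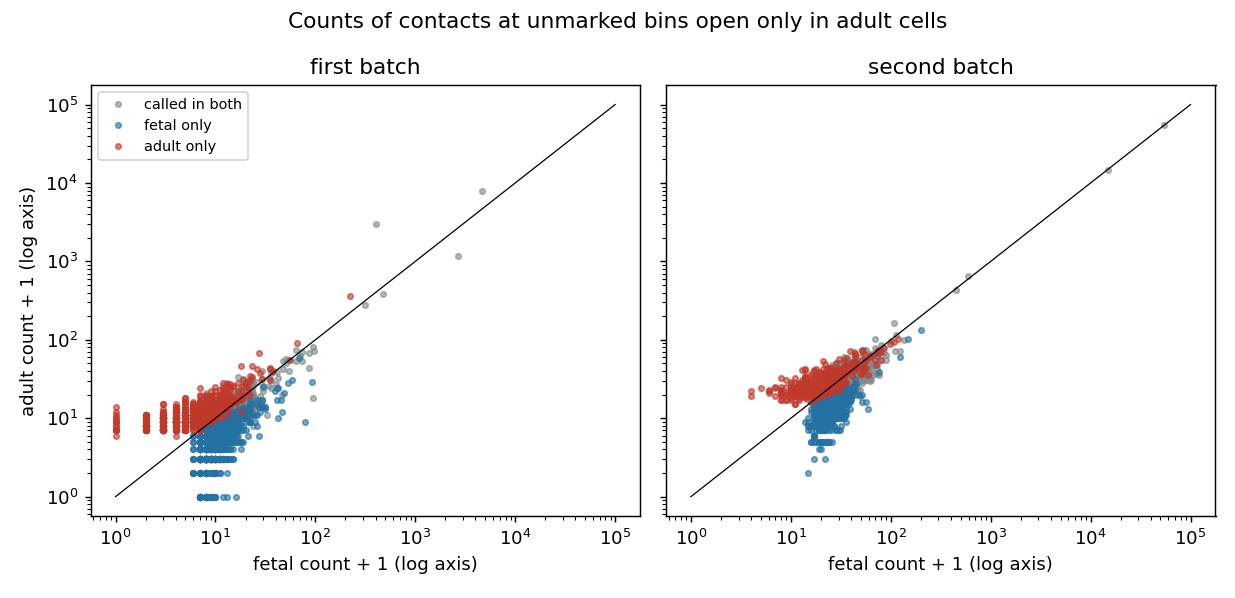
Adult count (y axis) against fetal count (x axis) of each member contact, both plus 1 on log axes, coloured by the population in which the contact was called; the line marks equal counts. Most members lie under 100 counts, with adult-only calls above or near the line, and 5 shared members lie above 1000.

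A call in adult cells alone did not always come with the higher adult count. In the second batch 75 of 483 adult-only members (15.5%) were read at least as often in fetal cells, and 27 of 719 (3.76%) in the first. The opposite case, a fetal-only call with an adult count at least as high, was seen for 5 and 8 members. Of the first batch, 16 adult-only members had 0 fetal counts and 35 fetal-only members 0 adult counts. None of these numbers was computed over all contacts, so they do not set members apart.

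The calls moved with distance. Members lay a median of 178 kb (172 to 184) from their promoter in the first batch and 92.8 kb (88.2 to 96.3) in the second, against 172 and 92.1 kb over all contacts. Adult-only members had medians of 168 and 65.6 kb, nearer than fetal-only members at 209 and 114 kb. Shared members, at 157 and 87.0 kb, were the nearest in the first batch and lay between the others in the second. In the second batch 82.6% (77.4 to 87.1) of population-specific members at 20 to 60 kb were adult-only, 37.6% (33.4 to 42.0) at 60 to 150 kb and 30.7% (25.3 to 36.6) at 150 to 500 kb. The first batch gave 68.4% (56.7 to 78.6), 56.7% (52.0 to 61.3) and 41.7% (38.4 to 44.9), and 34.3% (23.3 to 46.6) beyond 500 kb. From 20 to 500 kb the same order was seen over all contacts, at 84.4%, 35.7% and 29.6% in the second batch and 69.5%, 56.4% and 40.9% in the first. Beyond 500 kb the share over all contacts was higher again, at 45.3% in the first batch and 38.2% in the second.

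**Figure D3:**
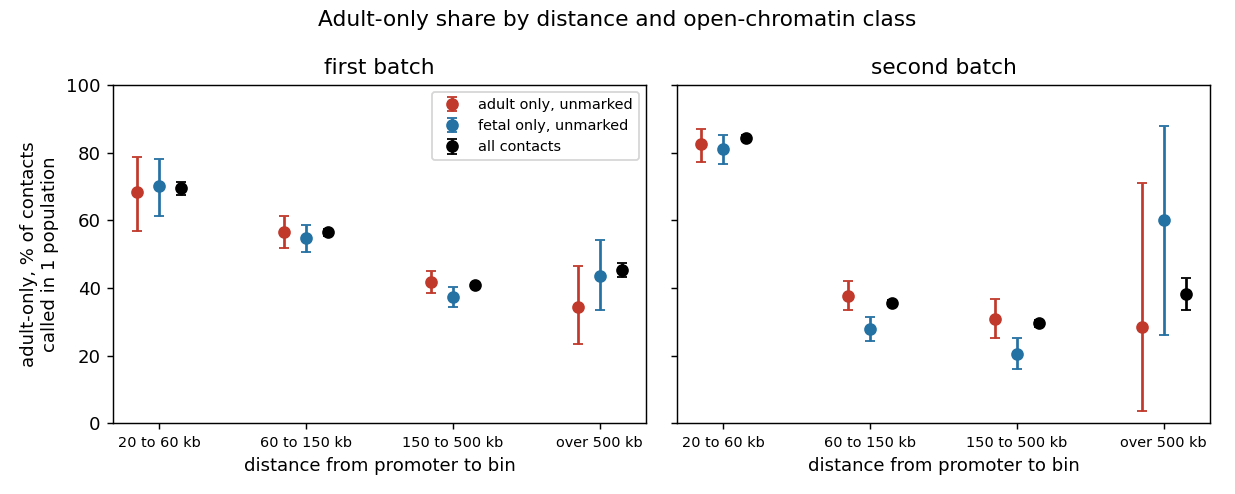
Adult-only share of contacts called in a single population (y axis, %) by distance class (x axis) for members, for unmarked bins open only in fetal cells and for all contacts, with exact 95% intervals, in each batch. The intervals of members include the share of all contacts in every class from 20 to 500 kb, and fetal-only open bins fall below members at 60 to 150 kb and 150 to 500 kb in the second batch.

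The difference from fetal-only open bins was not the same in all distance classes, and members were higher in 2 of 5 classes in the first batch and 3 of 5 in the second. At 60 to 150 kb in the second batch members were adult-only in 37.6% and fetal-only open bins in 27.9% (24.4 to 31.6), and at 150 to 500 kb in 30.7% and 20.4% (16.2 to 25.2). At 20 to 60 kb the shares were 82.6% and 81.2% (76.6 to 85.2), within counting error. In the first batch the largest class, 150 to 500 kb, had 41.7% and 37.3% (34.4 to 40.2), with overlapping intervals, and the 60 to 150 kb class 56.7% and 54.8% (50.7 to 58.8). Beyond 500 kb members were the lower, at 34.3% and 43.6% (33.4 to 54.2) in the first batch and 2 of 7 against 6 of 10 contacts in the second. They were also lower at 20 to 60 kb in the first batch, at 68.4% and 70.2% (61.3 to 78.2). Under 20 kb there were 10 and 8 population-specific contacts in the first batch, 7 and 6 of them adult-only, and in the second 2 and 1, with 0 and 1 adult-only.

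The table pools the replicate libraries, but 19 captured fragments were present in both batches, each named for a different gene in each batch. Of these, 6 had members in both batches, and 7 of the bins were the same. The fragment of Pdcd10, which encodes an adaptor protein of vascular integrity, and Serpini1, which encodes neuroserpin, lies at chr3:75360701-75361673. At its bin chr3:75508001-75510001, 148 kb away, the first batch gave 3 fetal and 11 adult counts, and the second 7 and 22. The contact was called in adult cells alone in both batches, with adult scores of 3.57 and 3.66. The adult share of the counts was 78.6% (49.2 to 95.3) and 75.9% (56.5 to 89.7). The adjoining bin at chr3:75510001-75512001 was fetal-only in the first batch with 7 fetal and 6 adult counts, and shared in the second with 19 and 17. Pdcd10 was expressed at 5.92 FPKM in fetal and 7.35 in adult cells, and Serpini1 at 0.388 and 1.35.

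A similar repeat was seen at the fragment of Brd8, a bromodomain protein, and Kif20a, a mitotic kinesin. A bin 96.6 kb away was adult-only in both, with 5 fetal and 12 adult counts at first and 19 and 26 in the later batch. A further bin of this fragment, 151 kb away, was fetal-only in the first batch with 8 fetal and 4 adult counts. It was adult-only in the second, with 20 counts in each population. The bins shared by Glod4 and Rnmtl1 and by Nsa2 and Gfm2 were called in both populations in each batch. The Glod4 and Rnmtl1 bin had 18 fetal and 13 adult counts at first and 46 and 43 later. The Nsa2 and Gfm2 bin had 22 and 18 counts, then 45 and 49. Ndufaf2 and Ercc8 shared a bin that was fetal-only at first (13 and 5 counts) and shared in the second batch (25 and 20). Efcab7 and Itgb3bp had 1 member each, adult-only in both batches but in different bins.

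Fragments that reached the same member bin were called in opposite populations about as often as in the same one. Among pairs of fragments of 1 gene in the same batch, 49 had a population-specific call at the same member bin on each side, and 23 of these (46.9%) were called in the same population. For fragments of different genes the number was 97 of 181 (53.6%), and between batches 65 of 123 (52.8%). Over all within-chromosome contacts the shares were 55.8%, 53.2% and 51.7%. The fragments Hlf and Hlf_1 of the stem cell factor Hlf are an example: the bin at chr11:90410001-90412001 was fetal-only for the former, with 9 fetal and 7 adult counts. It was adult-only for the latter, with 4 and 11.

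The bin joined to most promoters lay at chr16:18622001-18624001. It was a member for 8 fragments, those of Arvcf, Arvcf_1, Cdc45, Cldn5, D16H22S680E, Gnb1l, Mrpl40_1 and Txnrd2, at 124 to 279 kb. The contact was adult-only for 1 of them, fetal-only for 4 and shared for 3, with 139 fetal and 128 adult counts in all. Cdc45, Cldn5, Gnb1l and Mrpl40_1 were captured in the first batch and the others in the second. The tallies at this bin and the adjoining one therefore mix batches with different score thresholds. The bin's highest adult lean was at Cdc45, the replicative helicase factor, with 8 fetal and 13 adult counts, a shared call. The adjoining bin, chr16:18620001-18622001, was joined to 5 of these fragments, with 3 adult-only, 1 fetal-only and 1 shared contact and 69 fetal and 76 adult counts. A bin at chr11:49066001-49068001 was joined to 5 fragments, Zfp62 with 3 of its promoters and the interferon-induced GTPases Irgm1 and Tgtp2. Fetal counts were higher for 4 of them, with 44 fetal and 16 adult counts at Zfp62_2. The bin at chr11:82804001-82806001 was joined to 5 fragments, AI662270 with 2 promoters and the Schlafen genes Slfn2, Slfn3 and Slfn8, and it included the very high counts of Slfn8_1 given below. The remaining bin with 5 fragments, chr6:124948001-124950001, was joined to Cdca3, Gpr162, Lag3, Leprel2 and Usp5, with 0 adult-only, 3 fetal-only and 2 shared contacts.

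Among single promoters, Sema6d_2, a start of the semaphorin gene Sema6d, had most members of the first batch, 15 of its 76 contacts, with 6 adult-only, 3 fetal-only and 6 shared. Its counts summed to 128 fetal and 154 adult, and the gene was barely expressed, at 0.331 and 0.0416 FPKM. The nearest of its members, 32.0 kb away, had 13 fetal and 22 adult counts. Ccnd1, which encodes cyclin D1 of cell-cycle entry, had 12 members in 6 sites, all on one side at 158 to 330 kb. Of these 7 were shared, 3 adult-only and 2 fetal-only. At the 6 nearest bins, 158 to 182 kb away, fetal counts were higher throughout, with 18 to 33 fetal and 13 to 25 adult counts. The farthest bin had 5 fetal and 13 adult counts. Ccnd1 was expressed at 10.9 FPKM in fetal and 6.09 in adult cells. Npm1, the nucleolar chaperone gene, had 11 members, 6 adult-only, 4 fetal-only and 1 shared, with 80 fetal and 84 adult counts in sum. Among them 5 adult-only or shared bins stood together at 128 to 138 kb with 6 to 12 fetal and 9 to 15 adult counts. The other top promoters of the first batch were Sp110 with 11 members and Churc1 with 10.

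Fam184a stood out in the second batch, with all 8 of its members adult-only among 35 contacts in all. The fragment lies at chr10:53470536-53471687, and the bins fall in 3 sites at 25.9 to 66.1 kb. Fetal and adult counts at the lower-coordinate bins were 10 and 19, 15 and 24, and 19 and 20. On the other side they were 21 and 48, 19 and 25, 17 and 32, 23 and 21, and 20 and 20. In sum there were 144 fetal and 209 adult counts, and 6 of the 8 bins were higher in adult cells. All but the 3 lower bins lay in the 20 to 60 kb class, in which 82.6% of members were adult-only. The promoter as a whole had 29 adult and 12 fetal calls. Fam184a was expressed at 0.105 FPKM in fetal and 1.07 in adult cells.

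Zbp1, which encodes an innate sensor of nucleic acids, had 12 members, the most of the second batch, with 5 fetal-only, 4 shared and 3 adult-only. Its counts were 405 fetal and 318 adult, while the FPKM was 0.018 and 1.5. Sgk1, a glucocorticoid-induced kinase gene, had 8 members at 380 to 610 kb, the farthest of this group, and 6 of them were shared. The bin 610 kb away had 42 fetal and 55 adult counts. The bin 380 kb away had 32 and 10, and its neighbour at 382 kb had 13 and 20. Chpt1, a phospholipid synthesis gene, had 8 members with 6 fetal-only, and 181 fetal against 125 adult counts. The remaining promoter, 2410018M08Rik, had 8 members with no adult-only call among them, 4 fetal-only and 4 shared.

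**Figure D4:**
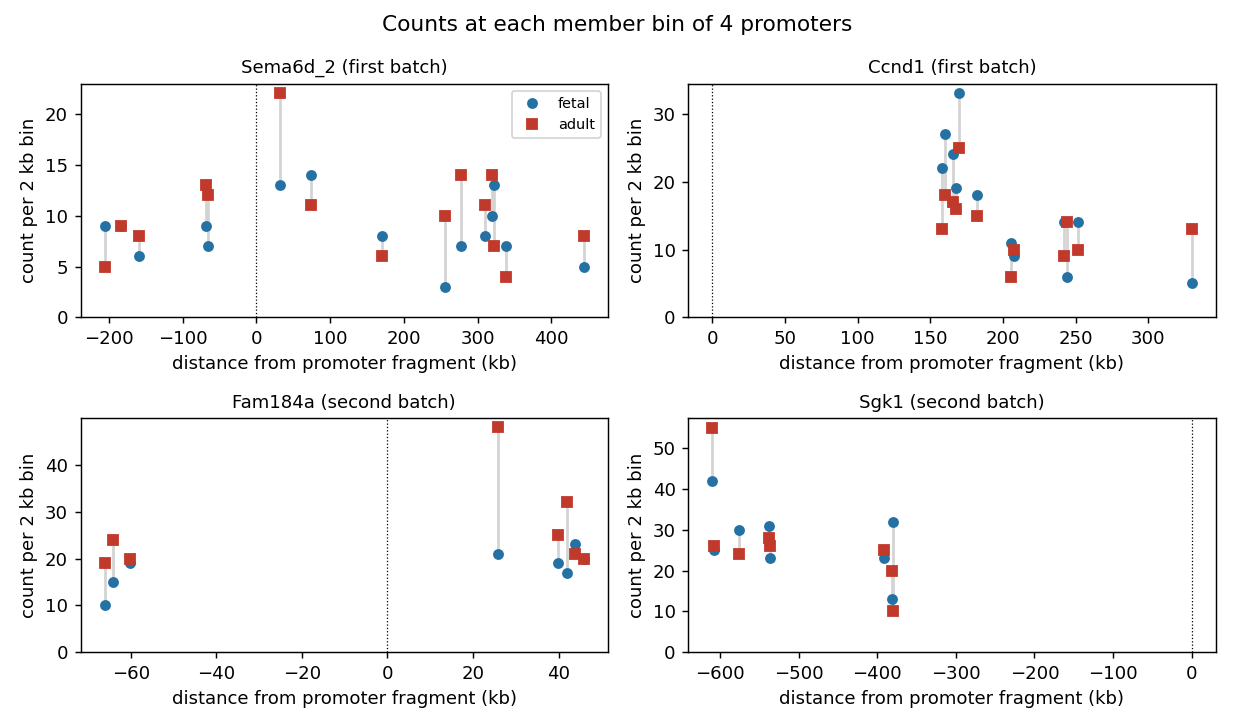
Fetal (circles) and adult (squares) counts per 2 kb bin (y axis) at each member of 4 promoters against signed distance from the promoter fragment (x axis, kb). Adult counts are the higher at 6 of 8 bins of Fam184a, and fetal counts are the higher at the 6 bins of Ccnd1 nearest to the promoter.

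Pf4, Vwf and Robo4 had the largest adult excesses among first-batch adult-only members with at least 20 counts. These contacts were chosen for their excess, so their counts are a description. Pf4, which encodes platelet factor 4, had 6 fetal and 23 adult counts with a bin 42.7 kb away, at chr5:91158001-91160001. Vwf, the gene of von Willebrand factor, had 4 and 17 with a bin 44.1 kb away, and its adult score of 1.32 was just past the threshold. The endothelial guidance receptor gene Robo4 had 4 and 17 at 73.4 kb. Adult scores were 1.97 for Pf4 and 4.17 for Robo4. Both platelet genes were expressed more in adult cells, Pf4 at 14.2 FPKM in fetal and 113 in adult cells and Vwf at 2.70 and 10.0. Robo4 was level at 4.15 and 4.11. Setd1b, a histone methyltransferase gene, had 6 and 19 counts, and H2-Q7, of the class I histocompatibility genes, which have near-identical copies, 6 and 18. In the second batch Stap1, which encodes a signalling adaptor, led with 3 fetal and 21 adult counts at 48.2 kb. Tns1 followed with 4 and 23 at 308 kb, the secreted guidance ligand gene Slit2 with 3 and 18, Ywhag with 7 and 32 and the interferon-induced Gbp5 with 5 and 22. Most of these scores were near the threshold of 2.0 as well, at 2.3 for Stap1, 2.03 for Tns1, 2.45 for Slit2 and 2.05 for Gbp5. Ywhag had 5.32. Expression at these promoters went either way. It was higher in adult cells for Stap1 (4.76 and 10.2 FPKM), Tns1 and Gbp5, and lower for Slit2 (2.89 and 1.14) and Ywhag (45.4 and 28.0).

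In the first batch, fetal excess at the same kind of bin reached larger counts at genes with near-identical copies. Tgtp2 had 78 fetal and 8 adult counts at a bin open in adult cells only, 137 kb away, while its FPKM was 0.756 in fetal and 6.01 in adult cells. Tgtp1, its near copy, had 41 and 9 at the adjoining bin, and H2-Q4 had 45 and 11. These genes, like H2-Q7 above, belong to families with near-identical copies, and the part of reads assigned to the wrong copy was not tested. Outside such families, the checkpoint kinase gene Chek1 had 26 fetal and 5 adult counts, and Arf2 had 17 and 3. In the second batch Igsf10 had 21 and 2, Ndufa9, of respiratory complex I, 25 and 4, Hp, which encodes haptoglobin, 19 and 3, Kalrn 23 and 4, and the folate enzyme gene Mthfd1 23 and 4. Expression was higher in fetal cells for Ndufa9 (30.0 and 17.7 FPKM), Hp (1.52 and 0.015) and Mthfd1 (31.7 and 15.3), and higher in adult cells for Igsf10 (0.452 and 1.14) and Kalrn (0.857 and 2.42).

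A few members held a large share of the counts, and most of them in the second batch. Among first-batch members 3 above 1000 counts in a population took 27.6% of fetal and 39.2% of adult member counts, and in the second 2 such members took 62.3% and 65.1%. They were Sp110 (4691 fetal and 7998 adult), Sp140_1 (407 and 2991), Slfn8_1 (2680 and 1182), Oas3 (14960 and 14706) and Hba-a1 (54778 and 54992), all shared. Each belongs to a gene family with similar or near-identical copies, and how the assignment of reads between copies bears on these counts was not tested. The bin of Sp110 lies 2226 kb from its fragment. With them, member counts of the first batch summed to 28214 fetal and 31058 adult. Without them the order was the reverse, 20436 and 18887. Sums of the second batch were 111893 and 106996 with them and 42155 and 37298 without. These are 5 of the 3377 contacts. Other members among the highest scores were a further bin of Sp110 (469 and 383 counts) and one of Clec2d, a lectin-like receptor gene (594 and 657).

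Promoters joined to members were higher in adult cells about as often as all captured promoters. In the first batch 450 of 879 such promoters with unequal FPKM (51.2%, 47.8 to 54.5) were higher in adult cells, against 51.7% of all captured promoters. It was 378 of 736 (51.4%, 47.7 to 55) in the second batch, against 54.1%. Their median log2 ratio of fetal to adult FPKM, with 1 added to each, was -0.017 (-0.093 to 0.032) for the first batch and -0.44 (-0.56 to 0.51) for the second. Over all captured promoters it was -0.036 (-0.093 to 0.003) and -0.54 (-0.57 to -0.46), so promoters with a member did not lean more to adult cells. All promoters of the second batch bear the authors' mark of differential expression. Hardly any ratio therefore lies near 0, and the interval of the median at promoters with a member is wide. Of first-batch promoters 36.9% of promoters with a member bore that mark and 35.5% of all. How the FPKM values were measured is not given in the sources used here. Markers of other blood cells differed between the populations in them: 6 of 6 captured erythroid, 6 of 6 macrophage and 5 of 5 granulocyte markers were higher in fetal cells, with sums of 66.3, 32.9 and 81.9 FPKM against 14.9, 2.34 and 6.24. All 4 megakaryocyte markers, Pf4 and Vwf among them, were higher in adult cells, with sums of 24.1 and 174. Of the stem and progenitor markers 8 of 10 were captured, with sums of 183 FPKM in fetal and 287 in adult cells, and their levels ran from 8.94 to 62.5 FPKM in adult cells. Of 4 endothelial and stromal markers 2 were higher in each population, and Nkg7, the captured marker of T and NK cells, had 1.51 and 7.05 FPKM. The B cell, mast cell and hepatocyte markers were not among the captured promoters. The part of other cells in these results was not tested.

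No relation between the direction of the calls and that of expression was detectable. Promoters with more adult-only than fetal-only members were higher in adult cells in 49.3% (43.6 to 55.1) of cases in the first batch, and those with more fetal-only members in 182 of 364 (44.7 to 55.3%). For the second batch these were 53.6% (47.6 to 59.7) and 50.6% (44.9 to 56.4). Counted by contact, at differentially expressed promoters, 48.9% of population-specific members were adult-only where expression was higher in adult cells and 51.6% where it was higher in fetal cells. These first-batch shares differed by -2.70 points (-10.9 to 5.58). The second batch had 48.3% and 44.8%, a difference of 3.54 points (-2.56 to 9.60). Differences of several points in either direction lie within these intervals.

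**Figure D5:**
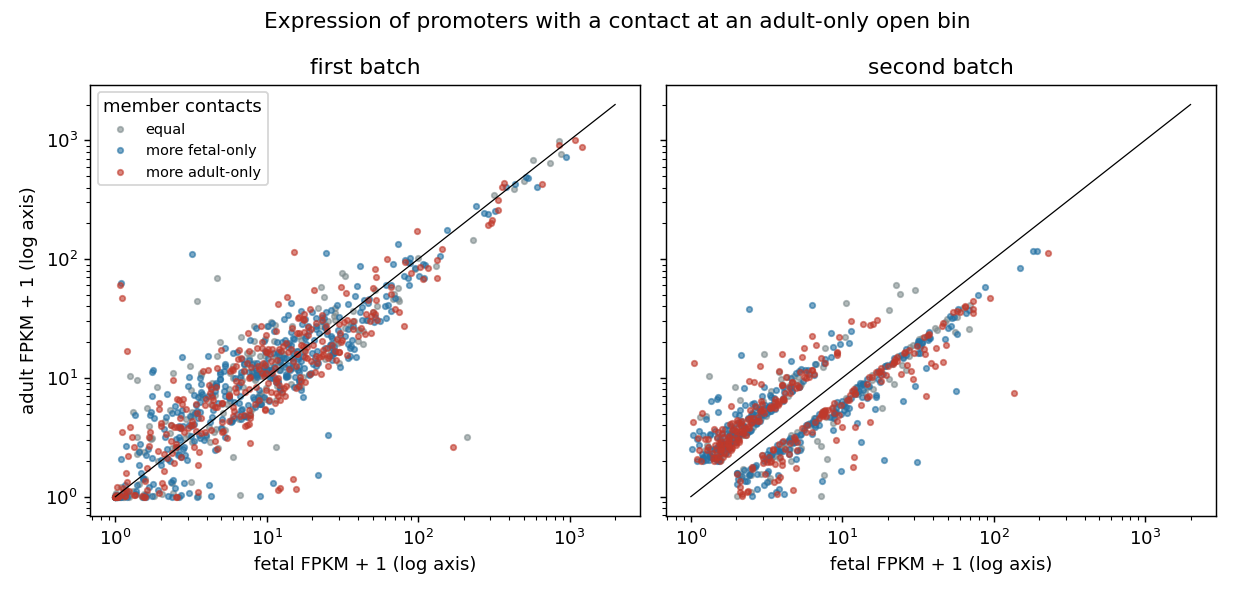
Adult FPKM (y axis) against fetal FPKM (x axis), both plus 1 on log axes, of each promoter with a member, coloured by whether adult-only or fetal-only member contacts were more numerous; the line marks equal expression. The colours are mixed on both sides of the line, and the second batch has a gap around it, since all of its promoters bear the mark of differential expression.

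Genes with known roles in HSCs were read through lists. Of 24 captured HSC regulators, 6 had a member, 23 of 713 contacts (3.23%, 2.06 to 4.80), against 3.82% of all contacts. Of these 13 were adult-only, 7 fetal-only and 3 shared, while all contacts of the list had 277 adult-only, 252 fetal-only and 184 shared. Their median log2 ratio of fetal to adult counts was -0.58, against 0.0 over all contacts of the list. That median rests on 23 contacts, has no interval and is a description only. Mecom, a gene needed for stem cell maintenance, gave 12 of the 23 through a pair of promoters. The fragment Mecom had 7 members with 46 fetal and 48 adult counts, of which 2 were adult-only, 3 fetal-only and 2 shared. Mecom_1 had 5, with 28 and 44, of which 3 were adult-only, 1 fetal-only and 1 shared. Among the adult-only ones, a bin 130 kb away had 2 and 9 counts and one 76.3 kb away 3 and 11. The fetal-only bin, 232 kb away, had 7 and 2. The E-protein gene Tcf3 had 3 members and 1 more at Tcf3_1, all adult-only. Fetal and adult counts at Tcf3 were 11 and 20, 14 and 25, and 8 and 12, and at Tcf3_1 0 and 8. Adult counts were the higher at every one of these bins, as at all but 27 of the 719 adult-only members of the first batch, so this adds little to the calls. Tcf3 expression was 39.0 FPKM in fetal and 21.3 in adult cells. Gata2 had a pair of adjoining members of opposite call, 65.6 and 67.6 kb away, with 12 fetal and 26 adult counts at the adult-only bin and 20 and 12 at the fetal-only bin. Gata2 expression was 21.9 and 57.3 FPKM. Hlf_1 had 2 and 9, and 4 and 11, at a pair of adult-only bins.

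The fetal program list had 14 members of 287 contacts (4.88%, 2.69 to 8.05), with 6 adult-only, 5 fetal-only and 3 shared, against 92, 116 and 79 over all contacts of the list. The members included bins of the imprinted genes Igf2 and H19, whose expression was higher in fetal cells, at 20.6 and 0.536 FPKM for the Igf2_2 fragment and 209 and 2.15 for the H19_1 fragment. The bin at chr7:149658001-149660001 was fetal-only for Igf2_2, with 11 fetal and 3 adult counts, and adult-only for H19, with 4 and 11. The bin at chr7:149740001-149742001 was shared for Igf2_2, with 16 and 14 counts, and fetal-only for H19_1, with 41 and 23. Sox17, which encodes a factor of fetal HSCs, had 4 members at a promoter with 0.020 FPKM in fetal cells and 0 listed in adult cells. The largest gap among them was 12 fetal and 4 adult counts, 274 kb away.

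The adult and quiescence list had 7 members of 296 contacts (2.36%, 0.956 to 4.81), with 1 adult-only, 5 fetal-only and 1 shared, against 88, 94 and 114 over all its contacts. Their median log2 ratio of fetal to adult counts was 0.87, against 0.08 over the list. It rests on 7 contacts, has no interval and is a description only. Fragments Cdkn1a and Cdkn1a_1 gave the same bin, adult-only for the former and fetal-only for the latter. Jun, an AP-1 gene with 2.18 FPKM in fetal and 109 in adult cells, had fetal-only members alone, with 10 and 5 and 9 and 4 counts. The cell cycle list had 15 of 297 contacts (5.05%, 2.85 to 8.19), of which Ccnd1 gave 12. They were 3 adult-only, 4 fetal-only and 8 shared, against 74, 93 and 130 over the list. The interferon and antigen presentation list had 6 of 233 (2.58%, 0.951 to 5.52), 4 adult-only and 2 fetal-only, with 5 of them at H2-Q7. All contacts of this list leaned the same way, with 128 adult-only, 56 fetal-only and 49 shared. At H2-Q7 a pair of adjoining bins differed in direction, with 91 fetal and 28 adult counts at one and 17 and 45 at the next. The list of surface and cytokine receptors had 10 of 241 (4.15%, 2.01 to 7.50), 2 adult-only, 4 fetal-only and 4 shared, against 85, 100 and 56 over all its contacts. Both members of Cxcr4, the receptor that retains HSCs in marrow, were shared, with 15 and 9 and 22 and 22 counts at 230 and 238 kb. The interval of every list includes 3.82%.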

How the data were processed

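Promoter Capture-C contacts of fetal liver and bone marrow HSCs were analysed from the authors' deposited table, which holds per contact a count and a score for each population, pooled over the libraries of a batch. The deposited count is a whole number, and whether it sums or averages libraries is not given in the sources used here. The score, as the authors deposited it, has a smallest value above 0 of 1.3 in the first batch and 2.0 in the second and was read as a −log10 scale. FPKM per promoter and the annotations of bins were also deposited by the authors. Trim Galore 0.41, Bowtie2 2.2.2 and the build mm9 are named in the submitters' processing notes. Library depths are not given in the sources used here.

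The batches differ in threshold and promoters and were analysed apart. A contact was adult-only, fetal-only or shared by scores above 0. Distance ran between fragment and bin midpoints. Ratios used log2 after adding 1. Shares carry exact Clopper-Pearson 95% intervals, medians binomial order-statistic intervals, differences Newcombe intervals and stratified odds ratios Mantel-Haenszel intervals (Python 3.11.15, pandas 2.3.3, numpy 2.4.6, scipy 1.17.1). All cover counting error only, and no p-value is given. The scripts were tested on simulated data. Of 1526 member genes 1393 matched a RefSeq symbol, 121 a synonym and 12 neither.

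Named contacts are the 5 promoters with most members per batch, the 5 largest adult and fetal excesses among population-specific members with at least 20 counts, the 3 highest scores, the 3 bins with most promoters (and those tied with them), promoters in both batches, and listed genes with at least 2 members. Pairs of Igf2 and H19 and of Hlf fragments were picked after their values were seen. The members and lists were chosen with earlier results of these data known. Alternatives were a stricter score, a distance minimum of 20 kb, merged bins, single use of a bin, omission of leading promoters, other pseudocounts, scaled counts, kept marks and expression filters.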

Additional observations from a re-analysis of the deposited data

Results flagged for a closer look

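A signal lay outside the comparisons above, which were limited to contacts within a chromosome. Unmarked bins open only in adult cells also took part in 62 contacts between chromosomes, 5.79% of the 1070 listed, with 39 in the first batch and 23 in the second. Of these 34 were called in both populations, 20 in fetal cells only and 8 in adult cells only. The split over all 1070 was not computed, so these numbers have no background and are not read as a trait of members. They came from 53 promoters. The largest, at Nup35, had 23668 of their 39695 fetal and 23474 of their 36936 adult counts. How the assignment of reads bears on these counts was not tested.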

How the results depend on the processing

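Across 16 results and 90 alternative values, 74 stayed within the counting interval of the reported value (counts: within 1.5 times), 15 moved past it and 1 changed direction. With a p 10 times smaller the members fell to 731 in the first batch and 738 in the second. The adult-only share was then 49.9% in the first batch and, in the second, 51.3%, past an even split. The second batch's difference from bins open in neither was 6.63 points, the median distances were 172 and 87.3 kb, and the median log2 count ratio of the second batch was 0.148. After scaling of counts to the batch totals the median log2 count ratio was 0.033 and 0.015, and members past a 1.5-fold adult excess made up 31.0% and 20.5%. A pseudocount of 5 gave 19.4% and 10.5% for that excess. Among promoters with at least 1 FPKM in either population the first batch's median log2 FPKM ratio was -0.102, and a pseudocount of 0.1 FPKM gave -0.786 in the second batch. The cause of these shifts was not tested, other than that the stricter score keeps fewer contacts. The difference from fetal-only open bins kept its direction under all 6 alternatives in each batch, from 1.02 to 3.52 points in the first and from 6.46 to 8.50 in the second; in the first batch the interval excluded 0 only with marked bins kept (0.634 to 6.39). The interval of the second batch's difference from bins open in neither excluded 0 under 4 of 6 alternatives. No paired analysis was possible because the value columns carry no replicates, and leaving out single libraries was not possible for the same reason. Counts near 8 per contact in the first batch limit what single contacts can show.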
